A study of Mus musculus with 18 samples.

Results

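The AP-1 and immediate early genes described here are 10 mouse genes chosen by name: Fos, Fosb, Fosl1, Fosl2, Jun, Junb, Jund, Egr1, Atf3 and Ier3. Each symbol matched 1 Ensembl row of the deposited gene table, so the set held 10 of its 38924 genes. All 10 passed the filter on low counts and were among the 16577 genes tested. The set was fixed by gene symbol, with earlier results of these data known. All 10 are protein-coding genes in the GENCODE annotation of GRCm38. The Fos family lies at chr12:85473890-85477273 (Fos), chr7:19302696-19310051 (Fosb), chr19:5447547-5455946 (Fosl1) and chr5:32135801-32157842 (Fosl2). The Jun family lies at chr4:95049034-95052222 (Jun), chr8:84974484-84978718 (Junb) and chr8:70698949-70700616 (Jund). Atf3 lies at chr1:191170296-191218039, Ier3 at chr17:35821684-35822923 and Egr1 on chromosome 18. Fosl1, Jun, Junb, Jund and Atf3 each overlap 1 gene on the opposite strand and none on their own.

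The libraries are bulk RNA-seq of primary fibroblasts from the heart (HF), kidney (KF) and tail (TF) of male Rosa mT/mG donor mice on a C57BL/6 background, aged 10 weeks. Rosa mT/mG mice carry a ubiquitous membrane TdTomato reporter, which marks the donor cells in a host without it. After 10 days of culture the cells were either placed on gelatin foam beneath the kidney capsule of syngeneic C57BL/6J mice aged 10 to 11 weeks for 3 days (HFs, KFs and TFs) or plated again and cultured for 3 more days (HFc, KFc and TFc). There were 3 libraries per group, 18 over the 6 groups, with 17927838 to 32245168 counts per library. Transplanted cells were recovered by dissecting and digesting the graft and sorting live TdTomato+ cells that lacked CD45, a leukocyte surface protein. The general isolation protocol of the study includes a sort of CD90+ cells without CD45 and CD31, and the sources used here do not say whether it was applied to these donor cells. Recovery from a graft differed along with the state, and its part cannot be told apart from that of transplantation. The study describes 3 biological replicates for each condition. The labels do not say whether these were separate animals, so the p-values measure the spread between these libraries. Levels are CPM, counts relative to library size, with library sizes adjusted by the trimmed mean of M values (TMM). In bulk RNA, fewer cells of a type and less RNA per cell cannot be told apart.

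KFs replicate 3 went against its label. The donors were male, yet this library held 1490 CPM of Xist, which is transcribed from the inactive X chromosome of female cells, and 0.719 CPM over the Y-linked genes. The other 17 libraries held at most 0.404 CPM of Xist and at least 175 CPM of the Y-linked genes. The main results with transplanted kidney fibroblasts are therefore given with and without the library labelled KFs replicate 3. Fibroblast markers were abundant as a sum in every group, though not each by itself. Their summed level was 15400 to 21400 CPM in culture and 20000 CPM in KFs replicate 3. In the other transplanted libraries it was 34100 to 127000 CPM. Lum, of the same list, had means of 0.481 CPM in HFc and 0.119 CPM in KFc. Mean Dcn was 13.5 CPM in KFc, and mean Postn was 11.3 CPM in TFc. Thy1 and Vim, which belong to that list, had lower means after transplantation, for Thy1 at 33.8 against 127 CPM in heart, 53.6 against 67.6 CPM in kidney and 150 against 240 CPM in tail, and for Vim at 2180 against 5060 CPM in heart.

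AP-1 is a dimer of basic leucine zipper proteins. Fos family proteins (Fos, Fosb, Fosl1, also called Fra-1, and Fosl2, also called Fra-2) pair with Jun family proteins (Jun, Junb, Jund), whereas Jun proteins can also pair with one another or with ATF proteins such as Atf3. Several of these genes, with the zinc finger factor Egr1, are immediate early genes: growth factors, serum, mechanical load and tissue damage raise their transcription through MAP kinases and preformed factors such as SRF and CREB, without new protein synthesis. Fosl1, Fosl2 and Jund are usually regarded as slower or steadier members. Ier3 encodes a short-lived protein linked to cell survival. In fibroblasts AP-1 is known for its action on matrix metalloproteinases, cell cycle genes and cytokines.

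The sequences just before the transcription starts of 4 members are shown because these genes differ in the size of the change described below. Each is the 140 bases before the RefSeq start in GRCm38.p6, written 5′ to 3′ on the strand of the gene. Capitals mark TGACG, the core of the cyclic AMP response element bound by CREB and ATF proteins, and TATAA, the core of a TATA box. The Fos window lies at chr12:85473750-85473889 (plus strand), Fosb at chr7:19310046-19310185 (minus), Jun at chr4:95052223-95052362 (minus) and Junb at chr8:84978749-84978888 (minus).
Fos: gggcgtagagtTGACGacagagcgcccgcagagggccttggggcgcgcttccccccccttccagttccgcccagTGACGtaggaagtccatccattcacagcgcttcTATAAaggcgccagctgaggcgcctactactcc
Fosb: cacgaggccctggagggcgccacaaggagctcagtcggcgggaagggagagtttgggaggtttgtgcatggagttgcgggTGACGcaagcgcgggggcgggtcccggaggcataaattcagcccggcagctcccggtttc
Jun: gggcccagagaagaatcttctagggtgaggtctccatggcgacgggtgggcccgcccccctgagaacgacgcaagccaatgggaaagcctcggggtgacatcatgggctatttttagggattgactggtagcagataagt
Junb: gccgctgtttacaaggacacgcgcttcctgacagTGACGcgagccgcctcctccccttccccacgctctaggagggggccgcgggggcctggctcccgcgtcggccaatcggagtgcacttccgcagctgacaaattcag

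The Fos window held TGACG at 129 and 66 bases before the start and TATAA at 33 bases before it. Fosb held TGACG at 60 bases and Junb at 106 bases before the start. The Jun window shown held neither motif, and so did the whole window searched for Jun, from 250 bases before the start to 50 after it. Of the 8 members with such a window, TGACG was present on either strand in 4 (Fos, Fosb, Junb and Atf3), against 20.8% of all 32851 RefSeq windows. TATAA was present in 3 of the 8 (Fos, Ier3 and, at the start itself, Junb), against 24.9% of all windows. The decamer recognized by NF-kappaB was found in 4 of the 8 (Fos, Fosb, Fosl2 and Ier3), against 8.46%. No member window held the AP-1 site TGANTCA, the full element TGACGTCA, the CArG box bound by SRF, or GCGTGGGCG, the Egr1 site. Those motifs were present in 7.81%, 1.79%, 1.63% and 0.612% of all windows. Near matches were not counted, and the Jun window shown holds TGACATCA, which is TGACGTCA with A in place of G. Egr1 and Fosl1 had no window, and bases more than 250 before a start were not searched, so motifs there would have been missed. TGACG was searched after the other motifs had been examined, and it lies within TGACGTCA. A match is a description of letters, and binding was not measured.

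Transplanted fibroblasts held more RNA of most of these genes than cultured ones. Fosb and Fos rose in all 3 organs, and so did Egr1, Jun, Junb and Atf3, whereas Fosl1 and Fosl2 passed the test in no organ. A gene was called where edgeR's quasi-likelihood test gave an adjusted p under 0.05 and the fitted log2 fold change passed 1 in size. By that rule 6 of the 10 genes were higher in HFs than in HFc, against 18.3% of all genes tested. In KFs 7 of 10 were higher than in KFc, against 14.7%, and the count was also 7 without KFs replicate 3, against 12.9%. In TFs 7 of 10 were higher than in TFc, against 11.0%, but the count was 4 without TFs replicate 1. Neither edgeR nor DESeq2 called any of the 10 genes lower in any organ, and at an unadjusted p under 0.05 only Fosl2 in tail was lower, at −0.25. Of all genes, edgeR called lower 9.33%, 7.99% and 5.53% in heart, kidney and tail. By the adjusted p alone, 7, 8 and 8 members passed, against 56.4%, 48.8% and 38.8%. The median log2 fold change over the 10 members was 1.58 in heart, 1.71 in kidney and 1.14 in tail, and over all genes it was 0.0468, 0.093 and 0.0. In kidney these medians were 1.81 and −0.00643 without KFs replicate 3.

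**Figure D1:**
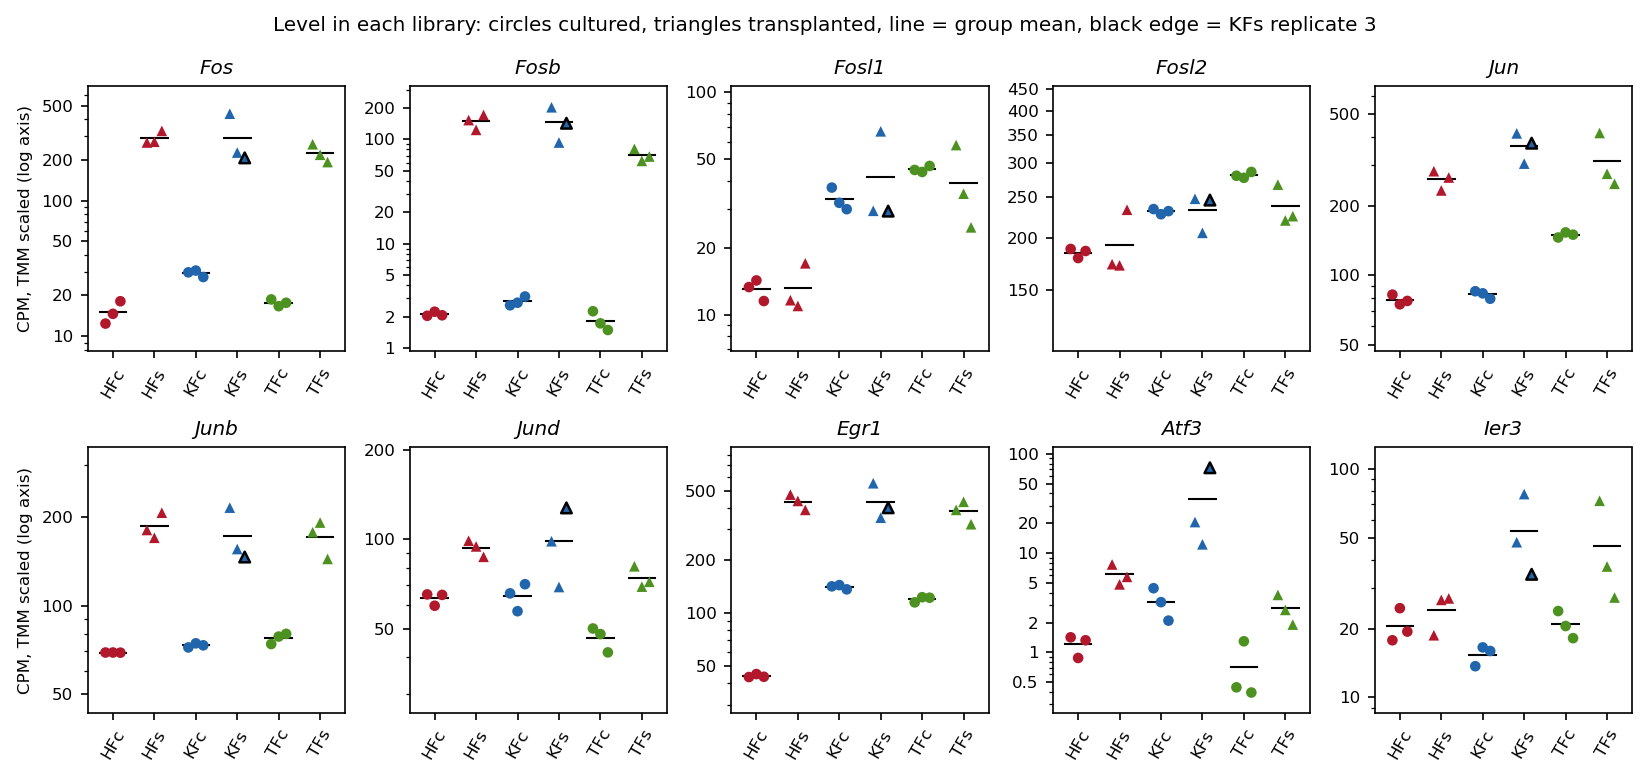
Level of each of the 10 genes in each of the 18 libraries, in TMM-scaled CPM on a log axis, by group. Circles are cultured and triangles transplanted libraries, lines are group means and the black edge marks KFs replicate 3. In the panels of Fos, Fosb, Jun, Junb and Egr1 all 9 triangles lie above all 9 circles, whereas in those of Fosl1 and Fosl2 the states overlap.

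Fos, the founding member of its family, was low in culture. Its level was 12.4, 14.7 and 18.1 CPM in the 3 HFc libraries, 29.6, 30.5 and 27.3 CPM in KFc, and 18.7, 16.7 and 17.7 CPM in TFc. After transplantation it was 267, 271 and 326 CPM in HFs, 436, 225 and 206 CPM in KFs, and 260, 217 and 192 CPM in TFs. The lowest transplanted library thus lay above the highest cultured one, and KFs replicate 1 was the highest of all. The log2 fold change was 4.26 ± 0.252 (SE, n = 3 per group) in heart, a 19.2-fold rise, with an adjusted p of 5.48e-09 in edgeR. In kidney it was 3.31 ± 0.24, a 9.92-fold rise (adjusted p = 5.86e-08), and 3.46 without KFs replicate 3. In tail it was 3.66 ± 0.245, a 12.6-fold rise (adjusted p = 5.84e-08).

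Fosb, a close relative of Fos, had the largest fold change of the 10 genes in each organ. In culture it ranged from 1.49 to 3.12 CPM over all 9 libraries, with counts of 34 at the least. It reached 153, 123 and 171 CPM in HFs, 203, 93.2 and 143 CPM in KFs, and 81.1, 62.2 and 68.5 CPM in TFs. Every TFs library lay below every HFs and KFs library. Fitted log2 fold changes were 6.14 ± 0.274 in heart (adjusted p = 3.87e-10, edgeR), 5.70 ± 0.264 in kidney (adjusted p = 6.9e-10) and 5.25 ± 0.267 in tail (adjusted p = 5.28e-09). These are rises of 70.3-fold, 52.0-fold and 38.1-fold. The kidney value was 5.68 without KFs replicate 3.

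Fosl1 and Fosl2 encode Fra-1 and Fra-2, Fos proteins without the C-terminal transactivation domain of Fos. Fosl1 stood at 13.3, 14.2 and 11.5 CPM in HFc and 11.6, 10.9 and 17.0 CPM in HFs. It stood at 37.3, 31.8 and 29.8 CPM in KFc and 29.3, 66.8 and 29.2 CPM in KFs, where replicate 2 was the high one. In tail it was 44.8, 43.8 and 46.6 CPM in TFc and 57.9, 35.0 and 24.7 CPM in TFs. Cultured and transplanted libraries overlapped in each organ. The log2 fold changes were 0.02, 0.34 and −0.20 in heart, kidney and tail, with approximate 95% intervals of ± 0.627, ± 0.604 and ± 0.605 and edgeR adjusted p-values of 0.964, 0.375 and 0.631. The kidney value was 0.50 (adjusted p = 0.185) without KFs replicate 3.

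Fosl2 held much the same range in both states. It ranged from 179 to 286 CPM over the cultured libraries and from 172 to 267 CPM over the transplanted ones, with medians of 231 and 225 CPM. The log2 fold changes were 0.06 ± 0.221 (approximate 95% interval) in heart, 0.01 ± 0.22 in kidney and −0.25 ± 0.22 in tail. The adjusted p was 0.647, 0.933 and 0.0959 in edgeR, and the kidney value was −0.07 without KFs replicate 3. In tail the 3 TFs libraries, at 267, 220 and 225 CPM, lay below the 3 TFc libraries, at 280, 277 and 286 CPM. None of these intervals reaches the fold limit.

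The makeup of the Fos family differed between the states, as the CPM per kilobase of exon showed. This scale was used because the 4 genes differ in exon length, from 2033 bases in Fosl1 to 9680 bases in Fosl2. In culture Fosl2 made up 59.2% ± 2.07 (SD, n = 3) of the family sum in HFc, 45.1% ± 1.84 in KFc and 49.2% ± 0.471 in TFc. Fos made up 19.9% ± 3.37, 23.4% ± 1.09 and 12.7% ± 0.592. After transplantation the share of Fos was 71.0% ± 1.64 in HFs, 62.8% ± 7.87 in KFs and 63.4% ± 1.75 in TFs, and that of Fosl2 was 11.5% ± 0.584, 13.2% ± 3.5 and 16.5% ± 1.46. In no organ did the cultured and transplanted libraries overlap in either share. The share of Fosb was 1.05% in HFc, 0.853% in KFc and 0.495% in TFc, and 13.8%, 12.3% and 7.61% in the transplanted groups. The share of Fosl1 was 19.9%, 30.6% and 37.5% in culture and 3.72%, 11.7% and 12.5% after transplantation. The family sum was 32.2, 52.9 and 59.0 CPM per kilobase in HFc, KFc and TFc, and 173, 191 and 150 CPM per kilobase in HFs, KFs and TFs. Without division by length Fos remained the largest share in HFs and KFs, at 44.9% and 39.6%, but in TFs Fosl2, at 41.8%, exceeded Fos, at 39.1%, and so it did in KFs replicate 3, at 39.4% against 33.1%. Without that library the KFs shares per kilobase were 65.0% for Fos, 11.4% for Fosl2, 10.8% for Fosb and 12.8% for Fosl1, with a family sum of 211 CPM per kilobase. A share falls when another member rises, so the lower shares of Fosl1 and Fosl2 do not by themselves show lower levels.

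**Figure D2:**
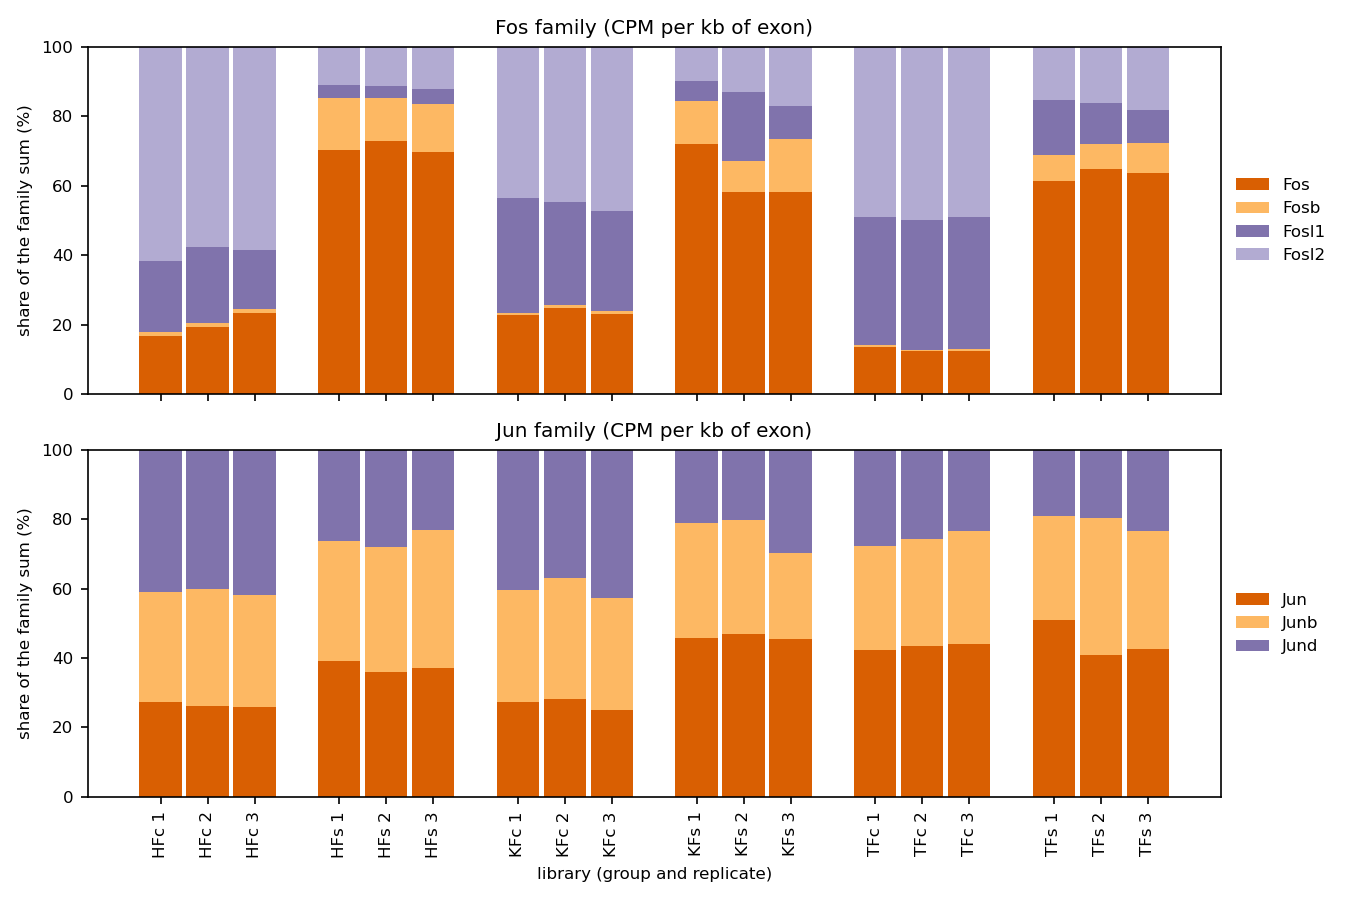
Share of each gene in the sum of its family, in percent of the summed CPM per kilobase of exon, for the 18 libraries. Upper panel, Fos family; lower panel, Jun family. Fos is the largest share in all 9 transplanted libraries and Fosl2 in all 9 cultured ones.

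Among the Jun family, Jun and Junb rose in each organ. Jun, the partner of Fos in the classical dimer, stood at 82.5, 74.9 and 77.4 CPM in HFc and 283, 234 and 266 CPM in HFs. It stood at 85.3, 83.5 and 79.1 CPM in KFc and 414, 306 and 375 CPM in KFs. In tail it was 146, 154 and 150 CPM in TFc and 415, 276 and 250 CPM in TFs. Cultured tail fibroblasts were thus the highest of the cultured groups, yet below every transplanted library. Jun changed by a log2 fold change of 1.74 ± 0.157 (SE) in heart (adjusted p = 3.03e-07, edgeR), 2.14 ± 0.158 in kidney (adjusted p = 6.77e-08) and 1.07 ± 0.154 in tail (adjusted p = 7.26e-05). The kidney value was 2.08 without KFs replicate 3. Without TFs replicate 1, the highest TFs library, the tail value was 0.81, under the fold limit, with an adjusted p of 0.000107.

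Junb, which often acts as a weaker activator than Jun, was nearly the same in all cultured libraries, from 69.3 to 80.2 CPM. After transplantation it was 181, 170 and 207 CPM in HFs, 215, 156 and 146 CPM in KFs, and 178, 192 and 144 CPM in TFs. The transplanted groups overlapped one another and none overlapped a cultured group. Junb changed by a log2 fold change of 1.42 ± 0.131 in heart, 1.23 ± 0.13 in kidney and 1.14 ± 0.13 in tail, rises of 2.68-fold, 2.35-fold and 2.20-fold. The adjusted p in edgeR was 3.74e-07, 2.14e-06 and 7.84e-06, and the kidney value was 1.30 without KFs replicate 3.

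Jund, the Jun protein most often described as constitutive, differed less. Its level was 65.2, 59.7 and 64.9 CPM in HFc and 99.0, 94.7 and 87.3 CPM in HFs. It was 65.7, 57.2 and 70.6 CPM in KFc and 98.6, 69.0 and 128 CPM in KFs, and replicate 2 of KFs lay within the range of KFc. In tail it was 50.01, 47.9 and 41.5 CPM in TFc and 81.1, 69.3 and 71.9 CPM in TFs. For Jund the log2 fold change was 0.57 ± 0.161 in heart, 0.61 ± 0.16 in kidney and 0.67 ± 0.161 in tail. The adjusted p of edgeR was 0.00726, 0.00524 and 0.00406, and none of the 3 values reached the fold limit. The kidney value was 0.34 without KFs replicate 3, with an adjusted p of 0.0421.

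Per kilobase of exon the Jun family sum was 92.6, 96.5 and 109 CPM per kilobase in HFc, KFc and TFc, and 219, 248 and 217 CPM per kilobase in HFs, KFs and TFs. Without division by length the sums in kidney went from 220 to 636 CPM for the Jun family and from 296 to 710 CPM for the Fos family, and in tail from 274 to 559 CPM and from 346 to 570 CPM. Jund was the largest share in HFc, at 41.0% ± 0.859, and in KFc, at 40.0% ± 2.92, and was 25.7% ± 2.35 in HFs and 23.6% ± 5.29 in KFs. Jun was the largest share in TFc, at 43.3% ± 0.837, where it was 26.5% in HFc and 26.9% in KFc. After transplantation the share of Jun was 37.4% ± 1.66 in HFs, 46.1% ± 0.601 in KFs and 44.8% ± 5.31 in TFs. That of Junb lay between 30.3% and 36.9% in all 6 group means. With KFs replicate 3 left out, the KFs shares were 46.4% for Jun, 33.1% for Junb and 20.6% for Jund. Without division by exon length Jun, at 37.1% and 37.5%, was the largest share in HFc and KFc too.

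Egr1 encodes a zinc finger factor that serum and growth factors induce within minutes. It was 43.1, 44.8 and 43.3 CPM in HFc, 142, 144 and 137 CPM in KFc, and 115, 123 and 122 CPM in TFc. After transplantation it was 474, 436 and 388 CPM in HFs, 550, 350 and 399 CPM in KFs, and 388, 431 and 321 CPM in TFs. Cultured heart fibroblasts were thus apart from both other cultured groups, and the 3 transplanted groups overlapped. In heart the log2 fold change was 3.31 ± 0.152, a 9.89-fold rise (adjusted p = 4.57e-10, edgeR). In kidney it was 1.62 ± 0.142, a 3.07-fold rise (adjusted p = 3.7e-07), and 1.63 without KFs replicate 3. In tail it was 1.66 ± 0.142, a 3.16-fold rise (adjusted p = 5.08e-07).

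Atf3, a stress-induced partner of Jun proteins, was scarce in culture. Per kilobase of exon it stood at 0.561, 1.51 and 0.33 CPM in HFc, KFc and TFc, above Fosb alone among the 10 genes. Its level was 1.42, 0.88 and 1.33 CPM in HFc, 4.44, 3.21 and 2.09 CPM in KFc, and 0.445, 1.30 and 0.395 CPM in TFc. The lowest count was 9. After transplantation it was 7.69, 4.85 and 5.77 CPM in HFs, 20.6, 12.3 and 72.5 CPM in KFs, and 3.797, 2.68 and 1.91 CPM in TFs. The highest of these was KFs replicate 3, the library that went against its label. The log2 fold change was 2.33 ± 0.597 in heart (adjusted p = 0.00364, edgeR), 3.44 ± 0.575 in kidney (adjusted p = 0.000162) and 1.97 ± 0.638 in tail (adjusted p = 0.0233). Without KFs replicate 3 the kidney value was 2.30 ± 0.401 (adjusted p = 0.000178). The tail call was lost when TFc replicate 1, TFc replicate 3 or TFs replicate 1 was left out, with adjusted p-values of 0.0919, 0.0852 and 0.08.

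Ier3 rose in kidney and tail fibroblasts, but its difference in heart did not pass the test. It was 17.8, 24.6 and 19.4 CPM in HFc and 18.7, 26.7 and 27.1 CPM in HFs, and the groups overlapped. It was 13.7, 16.5 and 15.9 CPM in KFc and 47.8, 77.6 and 34.6 CPM in KFs. In tail it was 23.9, 20.5 and 18.2 CPM in TFc and 72.6, 37.4 and 27.4 CPM in TFs, with replicate 1 the highest. The log2 fold change was 0.23 in heart (approximate 95% interval ± 0.621, adjusted p = 0.55, edgeR), 1.79 ± 0.323 (SE) in kidney (adjusted p = 0.000305) and 1.13 ± 0.318 in tail (adjusted p = 0.0108). The kidney value was 1.98 without KFs replicate 3. Without TFs replicate 1 the tail value was 0.63, with an adjusted p of 0.0916.

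**Figure D3:**
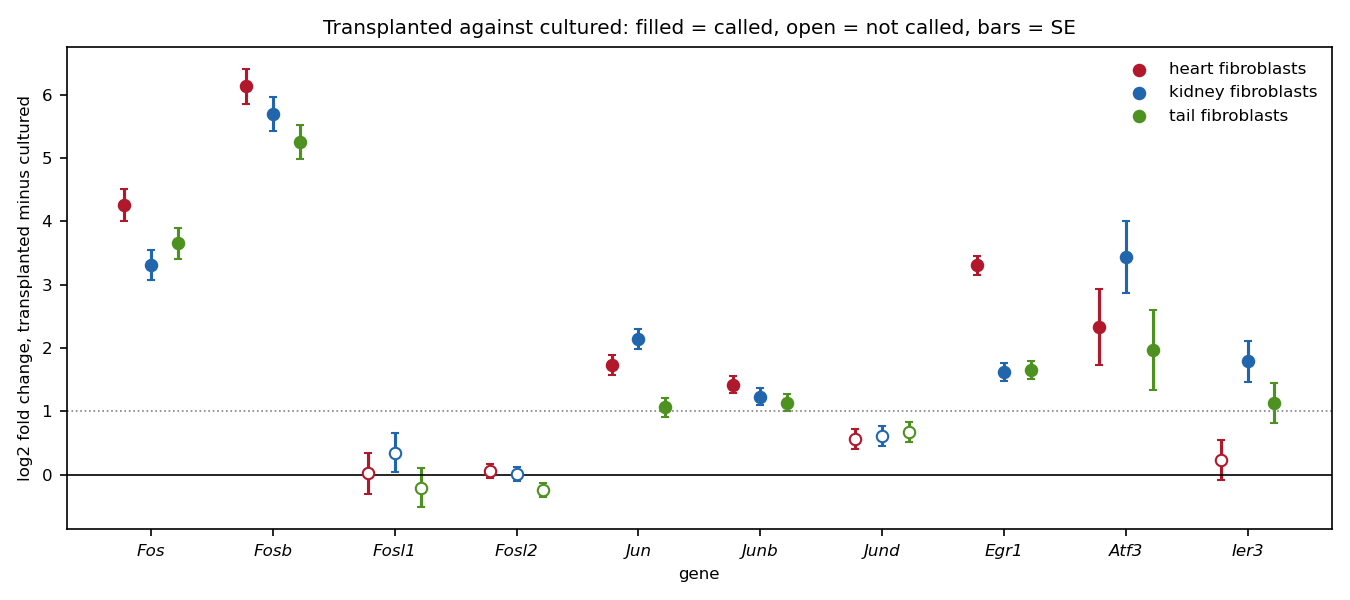
Fitted log2 fold change of the 10 genes, transplanted minus cultured, in heart, kidney and tail fibroblasts, with bars of 1 SE. Filled points were called and open points were not; the dotted line is the fold limit. Fosb is at 6.14, 5.70 and 5.25, while all 6 points of Fosl1 and Fosl2 lie between −0.25 and 0.34.

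Set against all 9 cultured libraries, the 9 transplanted libraries did not overlap for 5 of the 10 genes, Fos, Fosb, Jun, Junb and Egr1, and lay above them. Of all genes tested, 6.67% had every transplanted library above every cultured one. For Jund, Atf3 and Ier3 the ranges overlapped, with cultured medians of 59.7, 1.33 and 18.2 CPM and transplanted medians of 87.3, 5.77 and 34.6 CPM. In the order of group means, KFs was the highest group for Fos, Jun, Jund, Egr1, Atf3 and Ier3, HFs for Fosb and Junb, and TFc for Fosl1 and Fosl2. Without KFs replicate 3 the highest group for Jund was HFs, at 93.7 CPM against 83.8 CPM in KFs, and that for Fosl1 was KFs, at 48.0 CPM against 45.1 CPM in TFc. The ranges of the highest group and the next overlapped for 8 of the 10 genes, the exceptions being Fosl2, with TFc above TFs, and Atf3, with KFs above HFs.

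Cultured fibroblasts of the 3 organs also differed from one another. Here a gene was called by an adjusted p under 0.05 alone. Between HFc and TFc 5 of the 10 genes were called, against 41.9% of all genes, between KFc and TFc 4 (2 without KFc replicate 1 or TFc replicate 3), against 36.4%, and between HFc and KFc 4, against 29.2%. Those shares do not set these 10 genes apart. Heart fibroblasts were the low group for Egr1, with log2 differences of −1.46 ± 0.142 (SE) from tail (adjusted p = 8.08e-07, edgeR) and −1.69 ± 0.143 from kidney (adjusted p = 3.81e-07). They were also low for Fosl1, with −1.79 ± 0.321 from tail (adjusted p = 0.000337) and −1.34 ± 0.318 from kidney (adjusted p = 0.00485). For Fosl2 the difference was −0.61 ± 0.113 from tail (adjusted p = 0.000434) and −0.32 ± 0.113 from kidney (adjusted p = 0.0406). The Fosl2 difference from kidney missed the threshold when any 1 HFc or KFc library was left out. Jun was higher in tail than in heart, at −0.94 ± 0.154 (adjusted p = 0.000151), and than in kidney, at −0.86 ± 0.153 (adjusted p = 0.000458).

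Cultured kidney fibroblasts were the high group for Fos, with log2 differences of 0.72 ± 0.226 from tail (adjusted p = 0.021, edgeR) and −0.96 ± 0.228 for heart minus kidney (adjusted p = 0.00507). Without KFc replicate 1, KFc replicate 2 or TFc replicate 2 the Fos difference from tail had adjusted p-values of 0.0522, 0.0599 and 0.0615. Atf3 was higher in KFc than in TFc by 2.19 ± 0.628 (adjusted p = 0.0128), and missed the threshold without TFc replicate 1 (0.0606) or TFc replicate 3 (0.0509). Jund was lower in tail than in heart by 0.45 ± 0.161 (adjusted p = 0.0366) and than in kidney by 0.47 ± 0.161 (adjusted p = 0.0312). The Jund calls were lost with plain library sizes and without several single libraries, with adjusted p-values of up to 0.235 and 0.11. Fosb, Junb and Ier3 were called in none of the 3 cultured comparisons.

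After transplantation Fosl1, Atf3 and Jun were again among the genes that differed between organs, together with Fosb and Ier3. Between HFs and TFs 3 of the 10 genes were called, against 23.1% of all genes, between KFs and TFs 2, against 29.1%, and between HFs and KFs 4, against 33.2%, so the counts lay near those of all genes. Fosb was higher in HFs than in TFs by 1.08 ± 0.211 on the log2 scale (adjusted p = 0.00157, edgeR) and higher in KFs than in TFs by 1.05 ± 0.211 (adjusted p = 0.00162), or 1.07 without KFs replicate 3. Fosl1 was lower in HFs than in TFs by −1.57 ± 0.321 (adjusted p = 0.00228) and lower than in KFs by −1.66 ± 0.321 (adjusted p = 0.00113), or −1.85 without KFs replicate 3. Atf3 was higher in KFs than in TFs by 3.66 ± 0.587 (adjusted p = 0.000287) and than in HFs, at −2.53 ± 0.552 for heart minus kidney (adjusted p = 0.00264). Without KFs replicate 3 these values were 2.56 and −1.42, both still called. Jun was lower in HFs than in KFs by −0.48 ± 0.152 (adjusted p = 0.023), or −0.45 without KFs replicate 3. That call was lost without HFs replicate 2, HFs replicate 3 or KFs replicate 1 (adjusted p = 0.108, 0.0543 and 0.0774). In a fit of the 2 groups alone, none of the 4 differences between HFs and KFs passed the threshold (adjusted p from 0.0585 for Fosl1 to 0.136 for Jun), nor did Fosb between KFs and TFs (0.077).

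Ier3 was lower in HFs than in KFs by −1.14 ± 0.317 (adjusted p = 0.0119, edgeR), or −1.36 without KFs replicate 3, and missed the threshold without HFs replicate 1 (0.0581) or KFs replicate 2 (0.0825). Its difference between HFs and TFs was −0.92 ± 0.317 (adjusted p = 0.048), and −0.42 (adjusted p = 0.334) without TFs replicate 1. Leaving out HFs replicate 1, HFs replicate 2, HFs replicate 3 or TFs replicate 2 also took that adjusted p past the threshold, to 0.189, 0.102, 0.0881 and 0.0556. For Fos the difference between KFs and TFs was 0.38 ± 0.219 (adjusted p = 0.219), and 0.57 (adjusted p = 0.038) without KFs replicate 3. Egr1 differed by 0.19, 0.19 and −0.0025 in the 3 comparisons, with an approximate 95% interval of ± 0.271 each, and Junb by 0.12, 0.01 and 0.11, with ± 0.251. The HF minus KF difference of Fos was −0.0062, with ± 0.428. With KFs replicate 3 left out, the differences between HFs and KFs were −0.19 for Fos, −0.04 for Egr1 and 0.02 for Junb, and none passed the threshold.

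**Figure D4:**
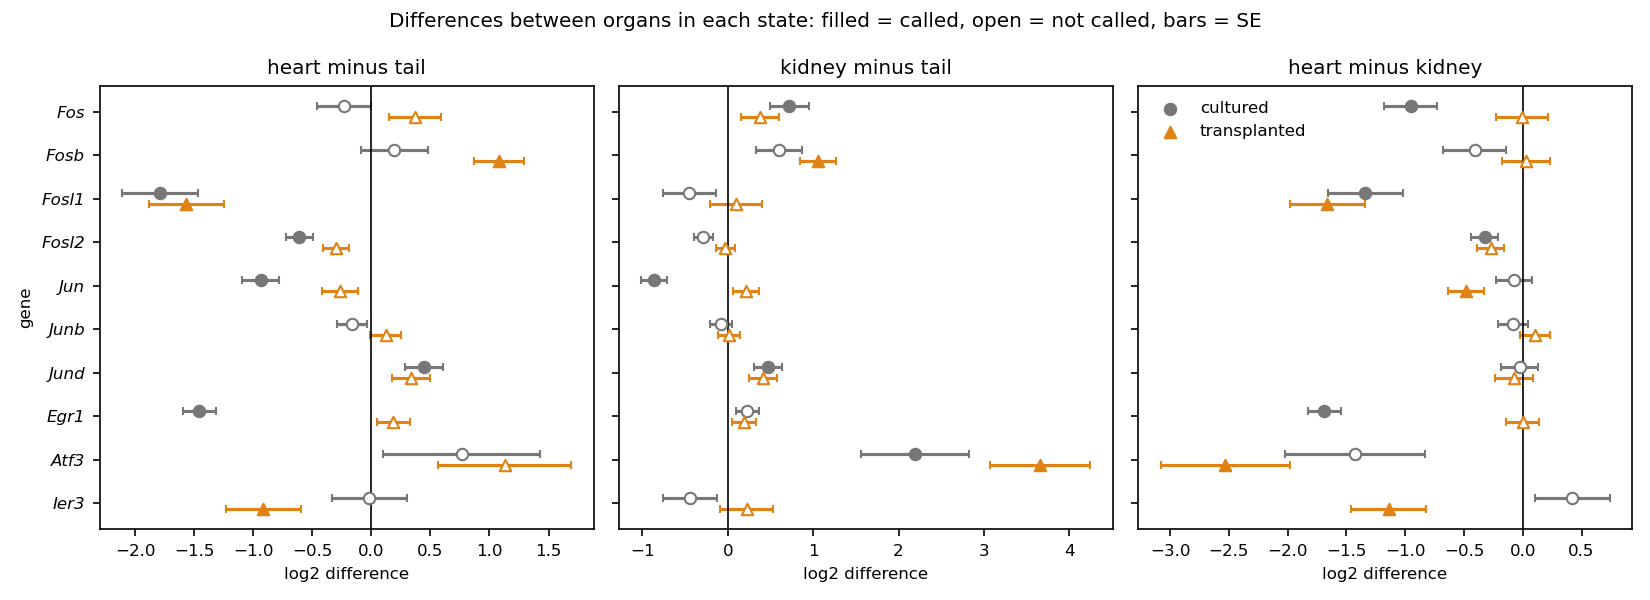
Log2 differences between organs for the 10 genes, in culture (grey circles) and after transplantation (orange triangles), with bars of 1 SE; filled points were called. Egr1 in heart minus tail is at −1.46 in culture and 0.19 after transplantation, while Fosl1 in the same panel is at −1.79 and −1.57.

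Whether the change from culture to transplant differed between organs was tested as the difference of the 2 log2 fold changes. Of the 10 genes 2 differed between heart and tail, against 22.8% of all genes, 1 between kidney and tail, against 11.1%, and 3 between heart and kidney, against 26.2%. The counts with all libraries lay near the shares of all genes and do not set the 10 genes apart. Without KFs replicate 3 the last 2 counts were also 1 and 3. Over all genes the calls then went from 1835 to 3619 between kidney and tail, and from 4347 to 5962 between heart and kidney. The Egr1 rise was larger in heart than in tail by 1.64 ± 0.198 (adjusted p = 4.3e-05, edgeR) and than in kidney by 1.69 ± 0.198 (adjusted p = 5.1e-05). The 3 transplanted groups had like Egr1 levels and HFc the lowest cultured one, as given above. The Jun rise was larger in kidney than in tail by 1.08 ± 0.216 (adjusted p = 0.00485), or 1.03 without KFs replicate 3, and larger in heart than in tail by 0.67 ± 0.215 (adjusted p = 0.0345). Cultured tail fibroblasts had the highest Jun of the cultured groups. The heart against tail difference of Jun missed the threshold without any 1 of the 3 HFc or 3 TFc libraries, HFs replicate 1, TFs replicate 2 or TFs replicate 3, and the adjusted p reached 0.088. The Fos rise was larger in heart than in kidney by 0.95 ± 0.315 (adjusted p = 0.0368), or 0.82 without KFs replicate 3. Without HFc replicate 1, HFc replicate 2, HFs replicate 3, KFs replicate 2 or any 1 KFc library its adjusted p was 0.0542 to 0.0964. The Ier3 change was smaller in heart than in kidney by −1.56 ± 0.449 (adjusted p = 0.0182), or −1.73 without KFs replicate 3. It missed the threshold without HFs replicate 1 (0.0588) or KFs replicate 2 (0.0658). The change of Fosb, Fosl1, Fosl2, Junb, Jund and Atf3 passed the test in none of these comparisons. The 3 organ pairs share libraries and are not independent of one another.

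Replicates varied more after transplantation. The median coefficient of variation over the 10 genes was 4.97% in HFc, 7.70% in KFc and 4.90% in TFc, and 13.8% in HFs, 33.6% in KFs (32.6% without replicate 3) and 14.9% in TFs. The largest was 93.0%, for Atf3 in KFs, where KFs replicate 3 was the high library, and without it the largest in KFs was 55.2%, for Fosl1. In TFs the largest was 51.9%, for Ier3. Across all genes, the chi-square per degree of freedom between replicates was 4.64 to 7.39 within cultured groups and 10.8 to 239 within transplanted ones. The values of 237 and 239 were those of pairs with KFs replicate 3, and without that library the highest was 82.1, in HFs. No pair was thus a repeat of 1 library.

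Genes outside the set whose level followed a member most closely were ranked by the Pearson correlation r of log2(CPM + 1) over the 18 libraries, which share 6 groups. For Fos these were Gm6472, Adamts15, which encodes a secreted proteoglycan-cleaving protease, and F10, which encodes coagulation factor X, with r of 0.98, 0.976 and 0.976. For Fosb they were Gcm1, Gm6472 and Pcf11, with r of 0.984, 0.982 and 0.98, and for Junb they were Ccnl1, Gm6472 and Angptl4, with r of 0.989, 0.981 and 0.974. For Jun they were Col5a3, a fibrillar collagen chain, Socs3, a feedback inhibitor of cytokine signaling, and Ppwd1, with r of 0.97, 0.968 and 0.965. For Egr1 they were Adgra2, Plxnd1 and Lhfpl2 (0.962, 0.958 and 0.958), and for Jund they were Tmem176b, Nfkbiz and Jmjd1c (0.948, 0.922 and 0.918). Atf3 was followed by Abhd2, Cd2ap and Tcim (0.955, 0.944 and 0.939), and Ier3 by Mthfd1l, Ldha and Il13ra2 (0.945, 0.938 and 0.935). Atf3 was highest in KFs replicate 3, at 72.5 CPM, and next highest in KFs replicate 1, at 20.6 CPM. No r is given without KFs replicate 3. For Fosl1 they were Tcfl5, Nudt4 and Gm4617 (0.926, 0.925 and 0.924), and Fosl2, whose states overlapped, was followed by Steap2 and Lgals3 (0.875 and 0.871). Such values describe the pattern over groups, and nothing about function or control was read from them.

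Other genes of the pathway were read against the share of all genes called, which was 18.3% higher and 9.33% lower in heart, 14.7% and 7.99% in kidney, and 11.0% and 5.53% in tail. Of 22 other immediate early genes, all tested, heart fibroblasts showed 9 higher and 1 lower after transplantation, kidney fibroblasts 5 and 3 (6 and 3 without KFs replicate 3), and tail fibroblasts 4 and 3. Their median log2 fold change was 0.59, 0.74 and 0.28. Nr4a3, an orphan nuclear receptor, was 0.521 CPM in HFc and 46.9 CPM in HFs, a log2 fold change of 6.49 (adjusted p = 1.78e-06, edgeR), and 1.51 in tail (adjusted p = 0.0388). In kidney it was 0.97 (adjusted p = 0.123), with 19.8 CPM in KFc. Egr4, of the Egr1 family, was not counted in HFc and had 19, 0 and 6 counts in the 3 HFs libraries, so that replicate 1 carried most of its mean and no fold is given. Maff, a small Maf protein, fell in all 3 organs, with log2 fold changes of −2.42, −1.999 and −1.73. Arc, a synaptic activity gene, fell by 1.46 in kidney and by 2.25 in tail.

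Among 15 other basic leucine zipper partners, 14 of them tested, 4 were higher and 1 lower in heart, 1 higher and 2 lower in kidney, and 1 higher and 1 lower in tail. The kidney and tail counts lay near those of all genes. Batf2 rose in all 3 organs but stayed at low levels, with 0.474, 0.331 and 0.696 CPM in HFs, KFs and TFs. Batf, at 0.731 CPM in HFs and 0.09 CPM in HFc, was called in heart (log2 fold change 2.93, adjusted p = 0.0463, edgeR). Mafk fell by 2.57 in heart and by 2.46 in kidney. Jdp2, a repressor that pairs with Jun proteins, fell by 1.29 in kidney and by 1.28 in tail.

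Of 19 MAP kinase, SRF and SRF cofactor genes, 18 of them tested, none was called higher, and 1, 1 and 2 were lower in heart, kidney and tail (0 in kidney without KFs replicate 3). By the adjusted p alone, without the fold limit, 4 were higher and 9 lower in heart, 4 and 10 in kidney, and 4 and 9 in tail, and the median log2 fold changes were −0.355, −0.298 and −0.214. Mapk3, which encodes ERK1, fell by 1.14 in heart, and Mrtfa, an actin-regulated SRF cofactor, fell by 1.00 in kidney and by 1.11 in tail. Among 20 feedback inhibitors 3 were higher and 4 lower in heart, 2 higher and 4 lower in kidney (2 and 6 without KFs replicate 3), and 3 higher and 1 lower in tail, where the counts lay near those of all genes. Zfp36, which encodes an mRNA-destabilizing protein, rose by 1.996, 1.84 and 2.03 in heart, kidney and tail, from 42.4 to 169 CPM in heart. The phosphatase gene Dusp14 fell by 1.49, 1.18 and 1.61, and Dusp8 fell by 2.97 in heart. Dusp2 was not counted in HFc and had 1, 6 and 6 counts in the 3 HFs libraries.

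Of 15 genes known as AP-1 targets, 4 were higher and 3 lower in heart, 6 higher and 3 lower in kidney (7 and 2 without KFs replicate 3), and 6 higher and 5 lower in tail. The matrix metalloproteinase genes Mmp9 and Mmp3 rose in each organ. Mmp9 went from 0.0983 to 41.3 CPM in heart, from 3.56 to 34.6 CPM in kidney and from 0.783 to 81.1 CPM in tail. Mmp3 went from 10.3 to 753 CPM in heart, from 2.71 to 50.9 CPM in kidney and from 11.2 to 3910 CPM in tail. Ccnd1, which encodes cyclin D1, fell in each organ, with log2 fold changes of −2.89, −1.13 and −1.02. Calls thus fell in both directions, with median log2 fold changes of −0.17 in heart, 0.81 in kidney and 0.35 in tail.

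**Figure D5:**
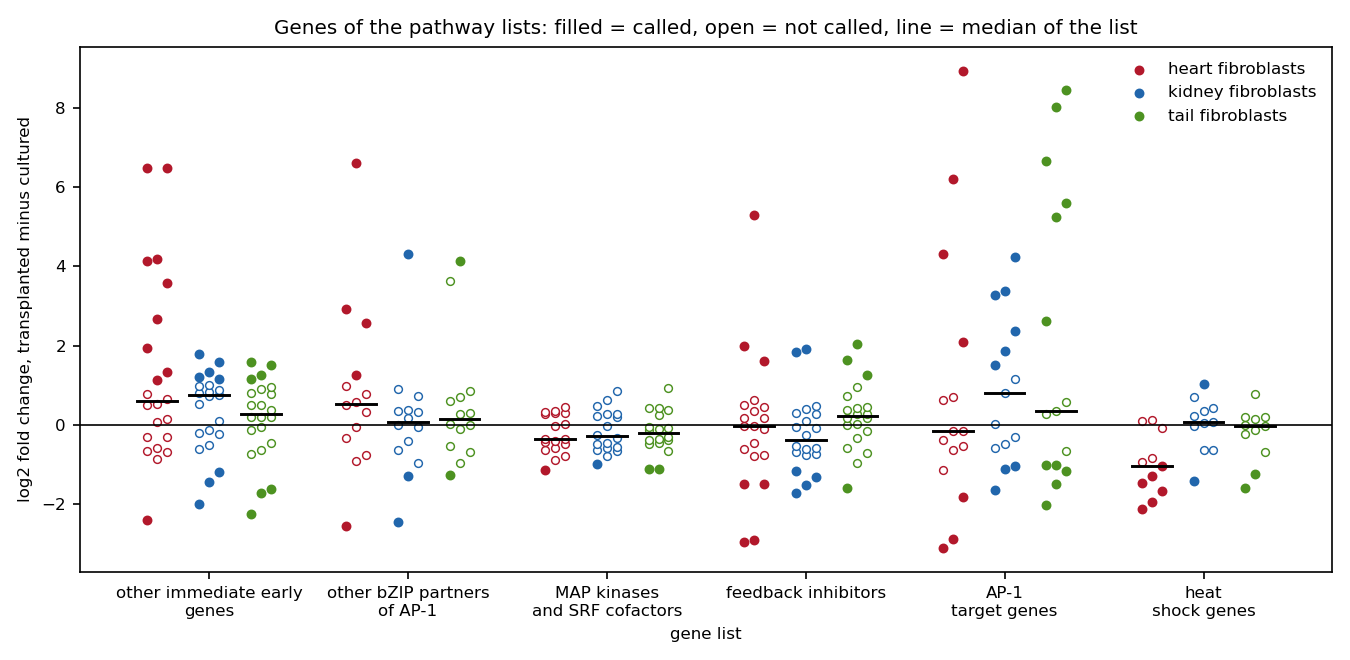
Fitted log2 fold change, transplanted minus cultured, of the genes tested in 6 lists, by organ; filled points were called and lines are list medians. No gene of the MAP kinase and SRF list was called higher. The fitted heart values of Egr4, Batf2 and Dusp2, which had no count in HFc, depend on the prior count of the fit.

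Heat shock genes, which cell stress can raise, were read in the same way. Of 11, all tested, 6 were lower and none higher in heart, 1 higher and 1 lower in kidney, and 2 lower and none higher in tail. The kidney counts were near those of all genes and were the same without KFs replicate 3. Hspb1 fell by 1.955, 1.43 and 1.61 on the log2 scale, and Hsph1 fell by 2.13 in heart and by 1.25 in tail. Hspa1a, the inducible Hsp70 gene, was called in kidney, at 17.9 CPM in KFc and 36.3 CPM in KFs (log2 fold change 1.02). The summed level of the list was 7010 to 7070 CPM in HFc and 2930 to 3130 CPM in HFs.

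Some markers of other cells differed between the states too. The 8 proximal tubule markers were called higher in 8, 6 and 8 cases in HFs, KFs and TFs, and their summed level was 68.7 to 967 CPM in HFs, 51.3 to 101 CPM in KFs and 108 to 280 CPM in TFs. In culture it was 22.5 to 25.0 CPM in HFc, 103 to 111 CPM in KFc and 19.5 to 21.8 CPM in TFc. Kap was at 0 in all 3 cultured groups, Slc34a1 and Slc22a6 in HFc and KFc, and Miox in KFc and TFc. Within HFs the proximal tubule sum was 120 CPM in replicate 1, 967 CPM in replicate 2 and 68.7 CPM in replicate 3. The 7 endothelial markers were called higher in 5, 3 and 3 cases, with sums of 109 to 116 CPM in HFs against 74.6 to 78.1 CPM in HFc, 112 to 127 against 75.8 to 78.6 CPM in kidney, and 80.0 to 96.8 against 50.2 to 56.7 CPM in tail. Emcn was at 0 in HFc and TFc. Of the 10 macrophage and leukocyte markers none was called in heart, and 6 were lower in each of kidney and tail. Their sum was 106 to 123 CPM in HFc, 104 to 175 CPM in HFs, 455 to 490 CPM in KFc, 13.3 to 162 CPM in KFs, 187 to 215 CPM in TFc and 42.5 to 50.7 CPM in TFs. Of 6 neutrophil markers 2 were tested, called higher in 2, 1 and 2 cases, and the list summed to 0.997 to 2.52 CPM over the cultured and 3.72 to 21.7 CPM over the transplanted libraries. Ly6g was at 0 in every library, and S100a8 and S100a9 in every cultured one. After transplantation the group means of S100a8 and S100a9 were at most 0.308 and 0.748 CPM, both in KFs. Mean Mmp8 was 10.1 CPM and mean Csf3r 4.16 CPM in HFs. Without KFs replicate 3, 5 proximal tubule and 2 endothelial markers were called higher in kidney and no endothelial marker lower. In that setting 6 macrophage and leukocyte markers were lower, and 4 of 4 neutrophil markers that then passed the filter were higher. The part of these cells in the changes of the 10 genes was not tested.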

How the data were processed

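Bulk RNA was measured in 18 libraries made with a stranded total RNA kit and read as 75-base single ends. The authors aligned reads and counted them per gene with RSEM and Bowtie2 on GRCm38 according to their methods, whereas the submitters' processing notes name mm9, Bowtie and RSEM. The deposited values are expected counts per gene, given as whole numbers and used as such. Of the 38924 genes 13968 had no count.

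Genes were filtered with filterByExpr by group, scaled by TMM and fitted with edgeR 4.0.16 in R 4.3.3 (quasi-likelihood test, 1 mean per group, all 18 libraries). Adjusted p-values are Benjamini-Hochberg values over the 16577 genes tested. Transplanted and cultured groups were compared within each organ (adjusted p under 0.05 and log2 fold change past 1), organs within each state, and the changes between organs (adjusted p under 0.05). SE was taken as the log2 fold change over the square root of F. Levels are TMM-scaled CPM from Python 3.11.15, and levels per kilobase use union exons. No fold is given against a group without counts. Intervals are normal 95% intervals. The scripts were tested on simulated data.

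The 10 genes and the lists were chosen with earlier results of these data known. From each list at most 2 genes with the largest rise and 2 with the largest fall, by mean log2 fold change over the organs, were named among those called in at least 1 organ. Cell type markers were described by their summed level, and those at 0 by name. Other markers named were chosen after their values had been seen. For each of the 10 genes the 3 genes most alike by r were named. A few genes that these rules select are not reported here. Promoter sequences are from RefSeq GRCm38.p6, which held windows for 8 of the 10 genes, all but Egr1 and Fosl1. The window of Jund, which ends at base 70697738, is not printed because its start lies well before the annotated one at 70698949. It is among the 8 windows in which motifs were counted. The starts used for Fosb, Fosl2, Junb, Atf3 and Ier3 also differ from the outer bounds of their annotated genes.

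Replicate numbers were not treated as pairs, because same-numbered cultured and transplanted libraries had deviations that correlated at −0.0423 to 0.045. Alternatives were DESeq2 1.42.0, its size factors, plain library sizes, other filters, a replicate block, fits of the compared groups alone and each library left out in turn. Levels, shares, list counts and replicate spread without KFs replicate 3 were added after the data had been seen.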

Additional observations from a re-analysis of the deposited data

Results flagged for a closer look

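The change from culture to transplant differed between organs for 4 of the 10 genes, by the test of the difference itself in edgeR. Per comparison 2 genes differed between heart and tail, 1 between kidney and tail and 3 between heart and kidney, near the 22.8%, 11.1% and 26.2% of all genes. For Egr1 the heart minus tail difference was 1.644 and the heart minus kidney difference 1.685 on the log2 scale. For Jun the kidney minus tail difference was 1.078 and the heart minus tail difference 0.673. For Fos the heart minus kidney difference was 0.9489, and for Ier3 it was −1.561. Both Egr1 differences and the kidney minus tail difference of Jun passed the threshold in every alternative run, while the other 3 missed it without at least 1 of the libraries named in the results. Groups of 3 libraries were too small for a test of single outlying libraries.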

How the results depend on the processing

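Of the values of the 10 genes that passed the threshold, 323 kept their side of it and 13 lost it over the alternatives that kept all libraries, and 272 kept and 52 lost it when 1 library was left out, and none changed sign. Among values that had not passed, 23 and 8 then passed and 27 and 48 changed sign. Fits of the compared groups alone called 8 of the 10 genes in KFc against TFc, 8 in HFc against KFc and 1 in KFs against TFs. They called 0 in HFs against KFs and 4 for the change in heart against tail. Over all genes they called 8675, 7508, 1137, 883 and 5643 in that order, where the main fit called 6026, 4833, 4819, 5504 and 3776. Plain library sizes called 5 of the 10 genes in HFs against TFs and 1 for the change in heart against tail, with 5720 and 3842 over all genes. They shifted the median of all genes by −0.156 in HFc against TFc, −0.22 in HFs against TFs, −0.205 in HFs against KFs and −0.112 for the change in heart against kidney, and the share of calls that were higher went from 44.8% to 19.6% in HFs against TFs and from 42.8% to 23.0% in HFs against KFs. Without the limit on the fold change 9353, 8091 and 6433 genes were called in heart, kidney and tail. With 1 library left out, the number of the 10 genes called was 4 (without TFs replicate 1) to 7 in TFs against TFc, 2 (without KFc replicate 1 or TFc replicate 3) to 3 in KFc against TFc, 1 to 2 for the change in heart against tail, 1 to 2 for kidney against tail (2 without KFs replicate 1) and 1 to 3 for heart against kidney (1 without KFs replicate 2). Over all genes it was 3183 (without TFs replicate 3) to 5944 in KFs against TFs, and 1198 (without TFc replicate 3) to 3619 (without KFs replicate 3) for the change in kidney against tail. With the replicate block, Ier3 in HFs against TFs was −0.88 with an adjusted p of 0.0616 in edgeR. That call was also lost with DESeq2 size factors (0.058), without the filter (0.0578) and in the fit of the compared groups (0.111). The cause of these shifts was not tested. Depth limits Atf3 most, with counts from 9.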
